A study of Mus musculus with 6 samples.

Results

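The nuclear genes that encode the subunits of the mitochondrial respiratory chain were followed across 6 arrays of laser-captured mouse limb tissue. They were chosen by gene name on the array: names starting with Nduf, Uqcr, Atp5, Cox4i, Cox5, Cox6, Cox7 or Cox8, and the genes Sdha, Sdhb, Sdhc, Sdhd, Cycs and Cyc1. The rule took 83 of the 19498 genes named on the array, measured by 115 probes, and 25 of the genes had 2 or more probes. By name 36 belonged to complex I, 4 to complex II, 8 to complex III, 16 to complex IV and 15 to complex V, and 1 (Cycs) encodes the carrier cytochrome c. The other 3 names were taken by the rule although they are not structural subunits: Ndufaf1, an assembly factor of complex I, Cox7a2l, a factor that joins complexes III and IV, and Atp5s, which RefSeq now lists as Dmac2l. Ndufa4 was counted with complex I by its name, although its product is now placed in complex IV.

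The respiratory chain passes electrons from NADH, at complex I, and from succinate, at complex II, through ubiquinone to complex III, then by cytochrome c to complex IV, which reduces oxygen. Complexes I, III and IV pump protons across the inner mitochondrial membrane, and complex V, the ATP synthase, lets them flow back to make ATP. Most subunits are encoded in the nucleus and the most hydrophobic ones in mitochondrial DNA; several subunits of complex IV and the c subunit of complex V exist as isoforms encoded by different genes, some of them typical of heart and skeletal muscle. Cartilage of the growth plate has no blood vessels and is known for its reliance on glycolysis.

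The tissue came from the autopod, the hand or foot plate, of C57BL/6 mouse embryos at E14.5, given as embryonic days. The controls carried the genotype label wild type, and the mutants the label Tgfbr2Prx1KO, a name that by convention stands for loss of Tgfbr2, which encodes a TGF-beta receptor, through a recombinase driven by Prx1 in limb mesenchyme. Per the labels, 2 control and 2 mutant littermates were sectioned, and 3 tissues were captured: the interzone, where a joint forms between skeletal elements, chondrocytes of the growth plate, and interdigital tissue. There was 1 array for each tissue and genotype, and the embryos and cells behind each array are not given in the sources used here. RNA was amplified by PCR with a commercial procedure whose steps are undisclosed, and Cy3 labelling used 250 ng of the product. Slide 1 held the 3 controls and the mutant interzone, and the growth plate and interdigital mutant arrays lay on slide 2. For the growth plate and the interdigital tissue, genotype and slide therefore cannot be told apart. Each group had 1 array, so no difference could be set against a spread between replicates and no test was run. The question was how these genes differ between mutant and control in each tissue, and between the complexes.

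On the scanner's scale, processed signals had a median of 103 units on the growth plate control array and 340 to 502 on the other 5, and 72.3% (growth plate control) to 88.3% (interdigital control) of spots were well above background. Levels below are log2 signals minus the 75th percentile of their array, so that 0 is that percentile. The summed signal of 10 cartilage genes, on the same log2 scale, was 9.35 on the growth plate control array and 6.13 to 7.43 on the others. It was 6.21 on the growth plate mutant array, where all 10 cartilage genes were at least 2-fold below the control, so that array held less cartilage signal than the interzone control array. Summed levels of 7 interzone genes were highest on the interzone control array (5.77) and 3.43 to 4.83 on the other arrays, and those of 6 interdigital genes ranged only from 1.93 to 3.70 without marking the interdigital arrays. Epidermal markers (11 genes) were higher in every mutant than in its control, at 7.75 against 4.58 in interzone, 7.82 against 6.74 in growth plate and 7.53 against 3.30 in interdigital tissue. Of 10 macrophage markers, 9 were at least 2-fold higher in mutant interzone, with a summed level of 4.31 against 2.05, and the sums were 2.83 against 2.88 in growth plate and 3.65 against 4.34 in interdigital tissue. The 9 endothelial markers summed to 3.07 in mutant and 0.34 in control growth plate, 2.42 and 2.57 in interzone, and 3.05 and 3.99 in interdigital tissue; in growth plate 4 of the 6 measured were at least 2-fold higher in the mutant. The 7 erythroid markers summed to 6.35 in mutant and 8.04 in control growth plate, 6.97 and 7.52 in interzone, and 6.64 and 6.84 in interdigital tissue. The part of these other cell types in the results below was not tested. In tissue pieces of this kind, fewer cells of a type and less RNA per cell cannot be told apart.

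Of the 83 genes, 79 were well above background on all 6 arrays. Cox8c, the testis isoform of a small complex IV subunit, was not well above background on any array. Ndufb6 and Ndufb11, accessory subunits of complex I, were well above background on every array but the growth plate control, and Uqcrfs1, the Rieske iron-sulfur protein of complex III, on every array but the interzone mutant. The probes of these genes were bright. The median member lay at percentile 83.6 (growth plate control) to 89.3 (interdigital control) of the genes on its array, which describes the signal of the probes and not the amount of transcript. Because bright probes vary less than dim ones here, results are also set beside the 6327 genes whose mean level was at or above the 75th percentile, called bright genes below; 68 members were among them. The range of a gene over the 6 arrays, highest minus lowest log2 level, had a median of 1.57 over the members, 2.41 over all genes and 1.75 over the bright genes. For the 68 bright members it was 1.42.

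**Figure D1:**
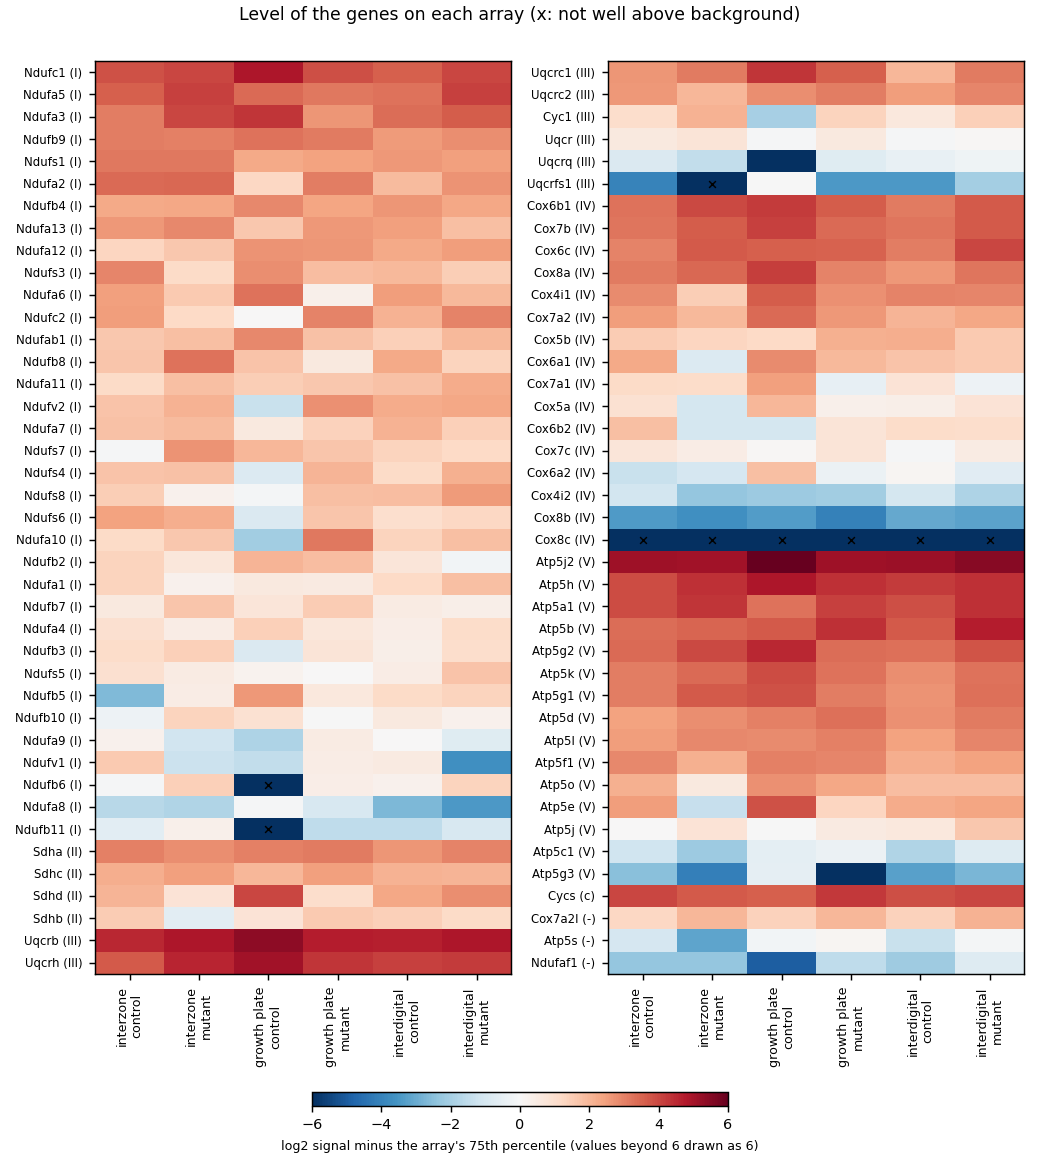
Level of 82 of the 83 genes (rows, grouped by complex, with c for cytochrome c and a dash for the 3 other names) on each of the 6 arrays (columns), as log2 signal minus the 75th percentile of the array; red is above it, blue below, and an x marks a gene not well above background. Most rows keep 1 colour across the arrays, and the growth plate control column holds many of the darkest red and blue cells.

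Between mutant and control interzone, 81 members could be compared, and 7 were at least 2-fold higher and 18 at least 2-fold lower in the mutant. That is 30.9% of them, against 40.5% of all genes and 30.7% of bright genes. Of the 68 bright members alone, 6 were higher and 12 lower, or 26.5%. By direction, 17.8% of all genes were higher and 22.8% lower. The members split into 10 higher and 13 lower in the authors' deposited ratios and 10 and 16 when centred on the median of all genes. Of all genes past 2-fold, 43.9% were higher, which became 72.1% with normexp background correction and 54.3% in the deposited ratios. The median member differed by 0.05 (log2) against -0.11 for all genes, and turned to -0.02 with the mean over the probes of a gene and to -0.03 with normexp background correction. Among members well above background on both arrays the most extreme were Atp5e at the low end (-3.87) and Ndufb5 at the high end (3.09).

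In growth plate, 80 members could be compared, of which 14 were higher and 14 lower in the mutant by at least 2-fold. This was 35.0% of members, against 54.7% of all genes (22.1% higher, 32.6% lower) and 49.6% of bright genes; of the 68 bright members, 10 were higher and 11 lower (30.9%). Under this scaling the members thus crossed 2-fold in a smaller share than the genes around them, as a description without a test. The split of higher and lower members followed the scaling: it was 24 and 10 with the 75th percentile over probes detected on all arrays and after quantile normalization, 26 and 10 when centred on the median of all genes, and 9 and 44 in the authors' deposited ratios. Of all genes past 2-fold, 40.4% were higher, which became 54.4% with that percentile and 16.8% in the deposited ratios. Their median difference was -0.09, against -0.45 for all genes. Its sign follows the scaling: it was 0.29 with the 75th percentile taken over probes detected on all arrays, 0.30 after quantile normalization, 0.36 when centred on the median of all genes, and -1.20 in the authors' deposited ratios, where the median of all genes was itself -1.56. Where both arrays were well above background, differences ran from -5.75 for Atp5g3 to 5.59 for Uqcrq. Ndufb6, not well above background on the control array, was at least 122-fold higher in the mutant under the first scaling.

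In interdigital tissue, 82 members could be compared, and 8 were at least 2-fold higher and 2 at least 2-fold lower in the mutant. The 12.2% past 2-fold stood against 26.0% of all genes (10.1% higher, 15.9% lower) and 11.6% of bright genes (6.45% higher, 5.17% lower). Of the 68 bright members, 3 were higher and 1 lower (5.88%). The split was 13 higher and 1 lower in the authors' deposited ratios and when centred on the median of all genes. Of all genes past 2-fold, 38.7% were higher, which became 49.2% after quantile normalization and 51.3% in the deposited ratios. Small differences pointed mostly upward: 57 of the 82 were above 0 (69.5%), against 40.5% of all genes and 49.5% of bright genes, and 66 were above the median of all genes. The median member differed by 0.31, against -0.18 for all genes and -0.01 for bright genes, and it stayed between 0.24 and 0.49 under the other scalings run. In interzone 54.3% and in growth plate 46.3% of members were above 0, against 45.6% and 37.8% of all genes.

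**Figure D2:**
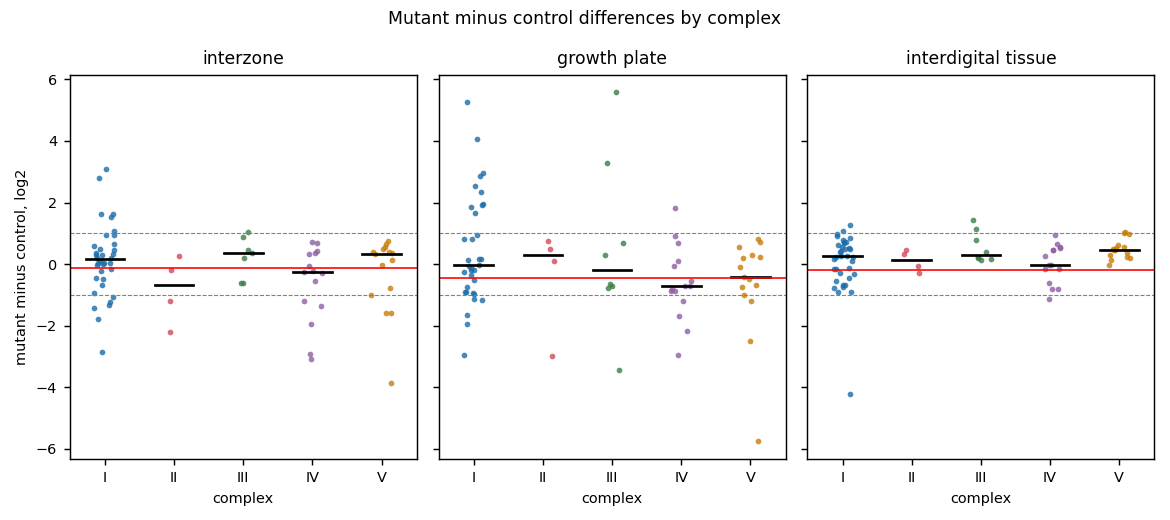
Mutant minus control log2 difference of each member (points) by complex in the 3 tissues; black bars are the median of a complex, the red line is the median of all genes in that tissue, and dashed lines mark 2-fold. Growth plate differences of members well above background on both arrays reach from -5.75 to 5.59, while in interdigital tissue 1 gene, Ndufv1 at -4.23, lies far from the rest.

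By complex, the interzone medians were 0.15 for complex I, -0.69 for complex II, 0.35 for complex III, -0.26 for complex IV and 0.32 for complex V. Set against the median of all genes, complexes I, III and V were above it by 0.27, 0.46 and 0.44, but all of these turned negative with normexp correction (-0.37, -0.24 and -0.16). Complexes II and IV differed from it by -0.58 and -0.14 and stayed below it under every scaling run. None of the 16 complex IV genes was 2-fold higher in the mutant interzone and 5 were 2-fold lower; in complex V these counts were 0 and 4, in complex II 0 and 2, in complex III 1 and 0, and in complex I 6 and 6. In growth plate the medians were -0.04 (complex I), 0.31 (II), -0.18 (III), -0.72 (IV) and -0.42 (V), and only complex IV lay below the median of all genes, at -0.27, which turned to 0.31 after quantile normalization. Complex V, at 0.03 against that median, turned to -0.28 with the mean over the probes of a gene. Complex I had 10 genes 2-fold higher and 5 lower there, complex III 2 and 1, complex IV 1 and 4, complex V 0 and 3, and complex II 0 and 1. In interdigital tissue the medians were 0.25 (I), 0.12 (II), 0.30 (III), -0.04 (IV) and 0.46 (V), all of them above the median of all genes under each scaling run. All 8 complex III genes and 14 of 15 complex V genes were above 0 there, against 22 of 36 in complex I and 7 of 15 measured in complex IV. No test of a difference between complexes was made.

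The core of complex I is formed by 7 nuclear subunits that carry the flavin and the iron-sulfur clusters, together with subunits encoded in mitochondrial DNA, which are not analysed here. The levels of a gene are given below as control and then mutant for each tissue. Ndufv1, which binds NADH and the flavin, read 1.59 and -1.27 in interzone, -1.48 and 0.46 in growth plate, and 0.55 and -3.68 in interdigital tissue. It was high on the interzone control array and lowest by far on the interdigital mutant array. The mutant was 7.30-fold lower in interzone and 18.8-fold lower in interdigital tissue, the most extreme member there, and 3.83-fold higher in growth plate. Ndufv2, its iron-sulfur partner, read 1.73 and 2.08 in interzone, -1.35 and 2.72 in growth plate, and 2.21 and 2.30 in interdigital tissue. Only the growth plate control array was low, which put the growth plate mutant 16.8-fold higher, while the other tissues differed less than 2-fold. Ndufs7, which holds the last iron-sulfur cluster before ubiquinone, read -0.09 and 2.70 in interzone, 2.00 and 1.65 in growth plate, and 1.33 and 1.19 in interdigital tissue, with the interzone control as the low array and an interzone mutant 6.91-fold higher.

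Ndufs8, another iron-sulfur subunit, read 1.48 and 0.27 in interzone, -0.11 and 1.80 in growth plate, and 1.85 and 2.55 in interdigital tissue. It was 2.33-fold lower in mutant interzone and 3.75-fold higher in mutant growth plate. Ndufs3 read 2.93 and 1.16 in interzone, 2.77 and 1.83 in growth plate, and 1.93 and 1.47 in interdigital tissue, and was lower in all 3 mutants, by 3.41-fold in interzone and less than 2-fold elsewhere. Ndufs1, the largest iron-sulfur subunit, was steady and read 3.18 and 3.18 in interzone, 2.27 and 2.39 in growth plate, and 2.61 and 2.46 in interdigital tissue. Of the 7 core genes, 1 was 2-fold higher and 3 lower in mutant interzone, 3 and 0 in growth plate, and 0 and 1 in interdigital tissue.

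Among the 29 accessory genes of complex I, 5 were higher and 3 lower in mutant interzone, 7 and 5 of 27 measured in growth plate, and 2 and 0 in interdigital tissue. Ndufb5 read -2.63 and 0.46 in interzone, 2.59 and 0.63 in growth plate, and 1.17 and 1.34 in interdigital tissue: the interzone control was the lowest array and the growth plate control the highest. The interzone mutant was thus 8.51-fold higher and the growth plate mutant 3.87-fold lower. Ndufa10 read 1.17 and 1.63 in interzone, -2.10 and 3.16 in growth plate, and 1.34 and 1.82 in interdigital tissue, with a low growth plate control and a mutant 38.3-fold higher. Ndufa6 read 2.48 and 1.56 in interzone, 3.25 and 0.31 in growth plate, and 2.52 and 1.96 in interdigital tissue, and its growth plate mutant was 7.67-fold lower. Here the growth plate control was the highest array, so the growth plate control stood at opposite ends for Ndufa10 and Ndufa6, genes of the same complex.

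Ndufb6 read -0.08 and 1.45 in interzone, -8.69 and 0.39 in growth plate, and 0.25 and 1.31 in interdigital tissue and Ndufb11 -0.64 and 0.29 in interzone, -7.76 and -1.54 in growth plate, and -1.50 and -0.96 in interdigital tissue; the values on the growth plate control array are signals not well above background. The growth plate mutant was at least 122-fold higher for Ndufb6 and at least 32-fold higher for Ndufb11. These bounds set the mutant against the weakest reading well above background on the control array. In the other tissues Ndufb6 was also higher in the mutants, by 2.87-fold in interzone and 2.09-fold in interdigital tissue, and Ndufb11 by less than 2-fold. Ndufb8 and Ndufb10, subunits of the membrane arm, were both 3.07-fold higher in mutant interzone: Ndufb8 read 1.66 and 3.28 in interzone, 1.73 and 0.57 in growth plate, and 2.25 and 1.35 in interdigital tissue, and Ndufb10 -0.28 and 1.33 in interzone, 0.89 and -0.01 in growth plate, and 0.58 and 0.25 in interdigital tissue. With the mean over its probes the interzone difference of Ndufb8 turned from 1.62 to -1.62 (log2). Ndufs5 was the complex I gene with the most positive interdigital difference, 2.39-fold higher in the mutant, and read 0.96 and 0.51 in interzone, 0.19 and 0.01 in growth plate, and 0.43 and 1.69 in interdigital tissue. Ndufs4, Ndufs6 and Ndufc2 were 7.35-fold, 5.78-fold and 7.83-fold higher in mutant growth plate; on the control growth plate array they read -0.83, -0.86 and 0.00, the lowest of their 6 levels in each case. Small ranges in the complex were those of Ndufb4 (0.59) and Ndufb9 (0.74).

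Complex II, succinate dehydrogenase, has 4 subunits and is also an enzyme of the citric acid cycle. Its catalytic flavoprotein Sdha read 3.0 and 2.80 in interzone, 3.02 and 3.14 in growth plate, and 2.65 and 2.97 in interdigital tissue. At this brightest probe its range over the 6 arrays was 0.49, the smallest among the 83 genes. Its next probe was less steady, with an interzone mutant 3.43-fold lower than the control. The iron-sulfur subunit Sdhb read 1.55 and -0.65 in interzone, 0.83 and 1.57 in growth plate, and 1.44 and 1.15 in interdigital tissue; only the interzone mutant was low, 4.60-fold below its control. The membrane anchor Sdhc read 2.19 and 2.44 in interzone, 1.97 and 2.48 in growth plate, and 2.09 and 2.02 in interdigital tissue and differed by less than 2-fold in each tissue at the brightest probe. The next probe of Sdhc was dim, and not well above background on the interzone mutant and growth plate control arrays. The other anchor, Sdhd, read 2.02 and 0.83 in interzone, 4.02 and 1.04 in growth plate, and 2.33 and 2.79 in interdigital tissue. It was highest on the growth plate control array, and the mutant was 7.88-fold lower in growth plate, 2.27-fold lower in interzone and 1.38-fold higher in interdigital tissue. At these probes the 2 anchors, which sit side by side in the same complex, therefore differed in their pattern over the arrays.

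In complex III, Cyc1, which encodes cytochrome c1, read 1.05 and 2.10 in interzone, -1.97 and 1.32 in growth plate, and 0.64 and 1.44 in interdigital tissue. It was higher in all 3 mutants, by 2.07-fold, 9.78-fold and 1.73-fold, and again the growth plate control was the low array. The core protein genes Uqcrc1 and Uqcrc2 read 2.65 and 3.12 in interzone, 4.31 and 3.60 in growth plate, and 1.99 and 3.13 in interdigital tissue for Uqcrc1, and 2.61 and 2.01 in interzone, 2.77 and 3.07 in growth plate, and 2.52 and 2.91 in interdigital tissue for Uqcrc2. Only Uqcrc1 passed 2-fold at these probes, being 2.22-fold higher in mutant interdigital tissue. The next probe of Uqcrc1 gave 1.47-fold higher there and 2.60-fold lower in mutant interzone. Uqcrfs1 read -4.0 and -8.51 in interzone, -0.01 and -3.44 in growth plate, and -3.46 and -2.03 in interdigital tissue, and its interzone mutant signal was not well above background. The mutant was at least 5.66-fold lower in interzone, 10.7-fold lower in growth plate and 2.69-fold higher in interdigital tissue. In this gene the growth plate control was the highest array by more than 2 log2 units.

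Uqcrq, a small subunit, read -0.88 and -1.48 in interzone, -6.30 and -0.71 in growth plate, and -0.44 and -0.25 in interdigital tissue, and the growth plate mutant was 48.1-fold higher, the most positive difference among members well above background on both growth plate arrays. Its next brightest probe gave -0.31 (log2) for the same arrays, so the value rests on 1 probe. The remaining small subunits varied little. Uqcrb read 4.52 and 4.87 in interzone, 5.37 and 4.71 in growth plate, and 4.65 and 4.86 in interdigital tissue, and Uqcrh, the hinge protein, 3.69 and 4.59 in interzone, 5.06 and 4.28 in growth plate, and 4.08 and 4.21 in interdigital tissue, both of them highest on the growth plate control array. Uqcr, which RefSeq lists as Uqcr11, stayed between -0.09 and 0.78. Cytochrome c itself, Cycs, read 4.02 and 3.69 in interzone, 3.57 and 4.24 in growth plate, and 3.87 and 4.0 in interdigital tissue, a range of 0.67 with no tissue past 2-fold at the brightest probe. Its next probes gave mutant minus control differences (log2) of 0.60 and 0.71 in interzone and -0.14 and -0.27 in growth plate. In interdigital tissue they gave 0.81 and 1.11.

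Complex IV, cytochrome c oxidase, is regulated in part through isoforms of its nuclear subunits. Cox4i1, the ubiquitous form of subunit 4, read 2.84 and 1.49 in interzone, 3.63 and 2.75 in growth plate, and 2.96 and 2.93 in interdigital tissue, and the interzone mutant was the low array, 2.55-fold below its control. Cox4i2, the form known from lung and from low oxygen, read -1.11 and -2.30 in interzone, -2.20 and -2.09 in growth plate, and -1.07 and -1.87 in interdigital tissue; it too was lower in mutant interzone, by 2.28-fold. Cox5a read 0.90 and -1.03 in interzone, 1.99 and 0.32 in growth plate, and 0.34 and 0.81 in interdigital tissue, and was 3.83-fold lower in interzone and 3.18-fold lower in growth plate of the mutant. With the mean over its probes the growth plate difference turned to 3.01; the second probe of Cox5a was not well above background on at least 1 array of that pair. Cox5b read 1.51 and 1.29 in interzone, 1.21 and 2.13 in growth plate, and 2.17 and 1.57 in interdigital tissue, with no tissue past 2-fold. Cox6a1, the ubiquitous form of subunit 6a, read 2.27 and -0.82 in interzone, 2.84 and 1.96 in growth plate, and 1.73 and 1.57 in interdigital tissue. It was near its other levels everywhere but on the interzone mutant array, which was 8.50-fold lower than the control. Cox6b2, a form known from testis, read 1.83 and -1.08 in interzone, -1.06 and 0.77 in growth plate, and 1.09 and 1.05 in interdigital tissue, and was 7.49-fold lower in mutant interzone and 3.55-fold higher in mutant growth plate, while Cox6b1 read 3.26 and 3.97 in interzone, 4.19 and 3.63 in growth plate, and 3.14 and 3.66 in interdigital tissue and passed 2-fold in no tissue.

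Cox6a2, Cox7a1 and Cox8b are the isoforms typical of heart and skeletal muscle. Cox6a2 read -1.36 and -0.99 in interzone, 1.81 and -0.36 in growth plate, and 0.11 and -0.70 in interdigital tissue; the growth plate control array was high and its mutant 4.51-fold lower. Cox7a1 read 1.17 and 1.12 in interzone, 2.47 and -0.48 in growth plate, and 0.83 and -0.31 in interdigital tissue, and its mutant was 7.69-fold lower in growth plate, 2.20-fold lower in interdigital tissue and 1.04-fold lower in interzone. Cox8b read -3.41 and -3.70 in interzone, -3.37 and -4.06 in growth plate, and -3.05 and -3.20 in interdigital tissue and differed less than 2-fold in each tissue. The summed level of 16 skeletal muscle markers, of which 15 were well above background on each array, was 4.38 in control and 5.99 in mutant interzone, 6.32 and 4.35 in growth plate, and 5.10 and 4.42 in interdigital tissue. In growth plate 10 of the 15 measured markers were 2-fold lower in the mutant, in the direction of Cox6a2 and Cox7a1. In interzone 10 of 15 were 2-fold higher in the mutant, where Cox6a2, Cox7a1 and Cox8b differed by 0.36, -0.06 and -0.29 (log2). The part of muscle cells in these differences was not tested. The counterparts Cox7a2 and Cox8a, expressed in most tissues, read 2.50 and 1.94 in interzone, 3.40 and 2.60 in growth plate, and 2.05 and 2.31 in interdigital tissue for Cox7a2, and 3.11 and 3.45 in interzone, 4.16 and 2.96 in growth plate, and 2.59 and 3.23 in interdigital tissue for Cox8a; of these only Cox8a in growth plate passed 2-fold, at 2.30-fold lower in the mutant.

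**Figure D3:**
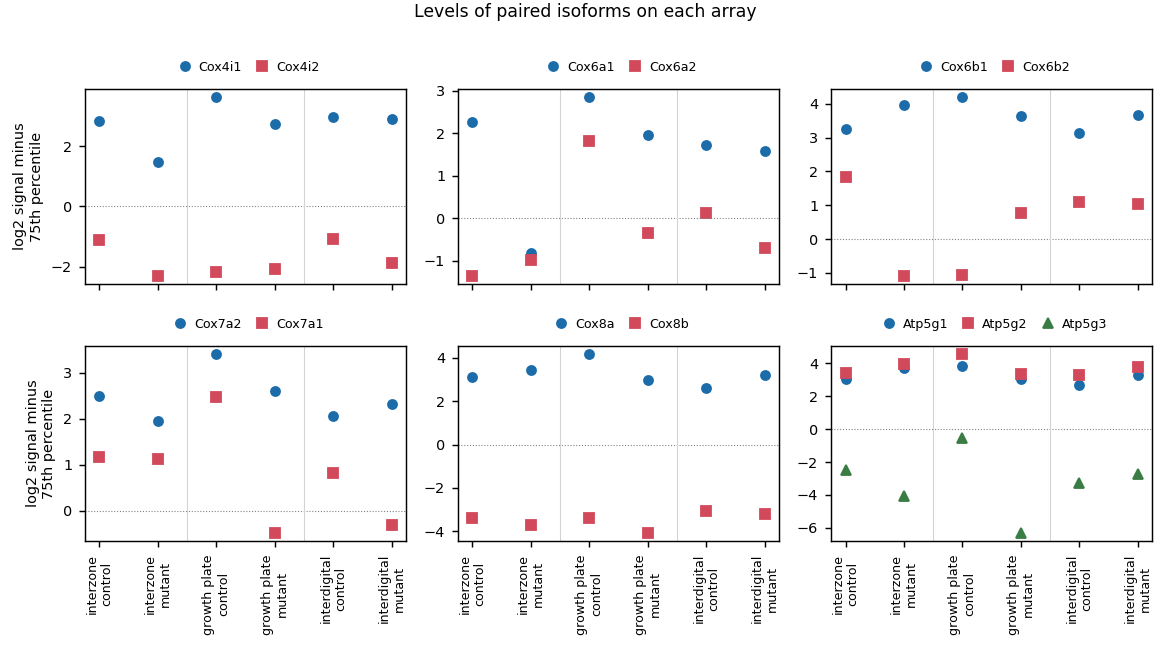
Level (log2 signal minus the 75th percentile of the array) of genes that encode isoforms of the same subunit, on each of the 6 arrays. Heights of different genes come from different probes and are not comparable, but shapes are: between control and mutant growth plate Cox7a1 differs by -2.94 and Cox7a2 by -0.80, and Atp5g3 by -5.75 against -0.74 and -1.20 for Atp5g1 and Atp5g2.

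The promoters of Cox7a1 and Cox7a2, isoforms of the same subunit, are shown because their mutant minus control differences in growth plate were -2.94 and -0.80 (log2). Each is the stretch of 250 bases before the start in the RefSeq annotation of GRCm38.p6, 5′ to 3′ on the strand of the gene, at chr7:30183921-30184170 (plus strand) for Cox7a1 and chr9:79759854-79760103 (minus strand) for Cox7a2. Neither held a match to the motifs described further on, so no base is in capitals.
Cox7a1: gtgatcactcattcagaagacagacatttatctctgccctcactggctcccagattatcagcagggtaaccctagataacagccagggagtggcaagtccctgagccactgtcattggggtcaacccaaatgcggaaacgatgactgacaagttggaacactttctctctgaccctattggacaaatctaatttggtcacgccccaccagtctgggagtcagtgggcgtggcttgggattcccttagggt
Cox7a2: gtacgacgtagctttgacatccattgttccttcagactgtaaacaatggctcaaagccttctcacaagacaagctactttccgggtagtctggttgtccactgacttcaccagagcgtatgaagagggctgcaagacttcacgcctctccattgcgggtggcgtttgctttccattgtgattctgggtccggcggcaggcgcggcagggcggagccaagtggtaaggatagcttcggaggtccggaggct

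In complex V, the catalytic head is formed by the alpha, beta, gamma, delta and epsilon subunits. Atp5a1 (alpha) read 3.91 and 4.27 in interzone, 3.28 and 4.09 in growth plate, and 3.87 and 4.37 in interdigital tissue, and Atp5b (beta) 3.35 and 3.48 in interzone, 3.67 and 4.38 in growth plate, and 3.67 and 4.70 in interdigital tissue. Both were higher in every mutant at the brightest probe, and there Atp5b passed 2-fold in interdigital tissue (2.04-fold). The next probes of Atp5b gave 0.88 and -0.11 (log2) in interdigital tissue. They gave 0.26 and -0.91 in interzone, and 2.28 and 0.43 in growth plate. Atp5c1 (gamma) read -1.18 and -2.19 in interzone, -0.60 and -0.36 in growth plate, and -1.79 and -0.78 in interdigital tissue, which put the mutant 2.02-fold lower in interzone and 2.02-fold higher in interdigital tissue, both at the edge of the 2-fold limit. Atp5d (delta) read 2.42 and 2.81 in interzone, 3.01 and 3.29 in growth plate, and 2.75 and 3.10 in interdigital tissue and was slightly higher in every mutant. Atp5e (epsilon) read 2.50 and -1.38 in interzone, 3.80 and 1.31 in growth plate, and 2.23 and 2.35 in interdigital tissue; its interzone mutant was 14.6-fold lower, the most negative interzone difference among members well above background on both arrays, and its growth plate mutant 5.63-fold lower, with a difference of 0.13 (log2) in interdigital tissue. In the stalk, Atp5o, the subunit that confers oligomycin sensitivity, read 2.15 and 0.56 in interzone, 2.76 and 2.34 in growth plate, and 1.87 and 1.85 in interdigital tissue, and its interzone mutant was 3.0-fold lower. At the brightest probe the other stalk and membrane genes Atp5f1 (RefSeq symbol Atp5pb), Atp5h, Atp5j, Atp5j2, Atp5k and Atp5l differed by less than 2-fold in each tissue, and in interdigital tissue all 6 were higher in the mutant, by 0.20 (Atp5h) to 0.97 (Atp5j). In interzone Atp5f1 gave -0.78 (log2) at that probe, and its next probes gave 0.78 and -3.03.

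The c subunit that forms the rotor ring is encoded by Atp5g1, Atp5g2 and Atp5g3, whose products have the same mature sequence. Atp5g1 read 3.05 and 3.70 in interzone, 3.81 and 3.07 in growth plate, and 2.68 and 3.30 in interdigital tissue. Atp5g2 read 3.42 and 3.97 in interzone, 4.53 and 3.33 in growth plate, and 3.30 and 3.75 in interdigital tissue. Both were highest on the growth plate control array and higher in the mutant in interzone and interdigital tissue. Atp5g3 read -2.51 and -4.09 in interzone, -0.54 and -6.28 in growth plate, and -3.28 and -2.74 in interdigital tissue, with the growth plate mutant as its lowest array and the growth plate control as its highest. The growth plate mutant was lower for all 3 genes, by 1.67-fold for Atp5g1, 2.30-fold for Atp5g2 and 53.7-fold for Atp5g3. The last was the most negative difference of any member, and its growth plate difference kept its sign under every alternative run. In interzone the Atp5g3 difference of -1.58 turned to 0.79 with normexp background correction.

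The promoters of Atp5g2 and Atp5g3 are printed since these genes encode the same mature protein, both were lower in the mutant growth plate, and each held 1 of the motifs searched. Capitals mark the NRF1 motif in Atp5g2 (chr15:102671048-102671297, minus strand) and the ERR motif, on the opposite strand, in Atp5g3 (chr2:73911327-73911576, minus strand), in GRCm38.p6 coordinates.
Atp5g2: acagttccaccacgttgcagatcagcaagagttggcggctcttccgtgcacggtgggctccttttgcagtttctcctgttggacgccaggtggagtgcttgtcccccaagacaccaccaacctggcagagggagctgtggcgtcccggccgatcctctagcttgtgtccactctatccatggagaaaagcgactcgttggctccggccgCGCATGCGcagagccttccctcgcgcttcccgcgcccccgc
Atp5g3: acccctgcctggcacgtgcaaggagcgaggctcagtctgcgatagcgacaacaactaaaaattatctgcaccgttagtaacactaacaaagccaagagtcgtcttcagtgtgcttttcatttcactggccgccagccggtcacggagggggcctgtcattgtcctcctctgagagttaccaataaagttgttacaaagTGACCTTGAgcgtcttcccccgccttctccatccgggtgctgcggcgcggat

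The motifs were CGCATGCG, the centre of the palindrome read by NRF1, TCAAGGTCA for the estrogen-related receptors (ERR), ACCGGAAGT for ETS factors and AAGATGGCG for YY1, known regulators of nuclear genes for mitochondrial proteins. They were searched on both strands, from 250 bases before to 50 after each start, with no overlap between motifs required or removed. RefSeq promoters matched 68 of the 83 genes, through 73 promoters. The NRF1 letters occurred in 10 of the 73 (13.7%), against 1.87% of all 32851 promoters, and with G before and C after them in 5 (6.85% against 0.971%). The 10 promoters were those of Atp5g2, Atp5j, Atp5k, Atp5l, Cox6a1, Cycs, Ndufa8, Ndufa11, Uqcr and Uqcrc1. The YY1 letters occurred in 7 (9.59% against 1.4%), the ERR letters in 2 (2.74% against 0.423%; Atp5g3 and Sdhd) and the ETS letters in 1 (1.37% against 1.1%; Ndufs3). Any of the 4 was present in 19 promoters, or 26.0%, against 4.63%. By complex, 8 of 32 complex I genes, 6 of 14 in complex V, 2 of 4 in complex III and 1 each of 3 and 11 in complexes II and IV held a motif, and Cycs did too. These are matches of letters, not sites shown to be bound. The 10 genes with the NRF1 letters did not move alike: in growth plate they differed by -0.89 (Cox6a1), -1.20 (Atp5g2), 0.57 (Atp5j), -0.67 (Atp5k), 0.19 (Atp5l), 0.69 (Uqcr), -0.71 (Uqcrc1), -0.91 (Ndufa8), 0.15 (Ndufa11) and 0.67 (Cycs), and in interzone by -3.09, 0.56, 0.76, 0.32, 0.40, 0.21, 0.47, -0.16, 0.66 and -0.33 in the same order.

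Over the 3 tissues together, 15 of the 79 members measured on all arrays were higher in every mutant (19.0%, against 9.99% of the 15603 genes measured on all arrays) and 9 were lower in every mutant (11.4% against 24.5%). These shares move with the scaling of the arrays, as the medians above do. Of the bright genes measured on all arrays, 11.7% were higher and 22.7% lower in every mutant. No member was 2-fold higher in all 3 mutants or 2-fold lower in all 3, against 1.62% and 1.90% of all genes and 1.09% and 0.98% of bright genes. With 79 members, none is close to these shares. Under 2-fold in every tissue at the brightest probe were 37 members (46.8%), against 26.4% of all genes and 35.7% of bright genes. They include Sdha, Sdhc, Cycs, Ndufs1, Uqcrb, Uqcrh, Cox6b1, Cox7b, Atp5a1 and Atp5h. Opposite differences of at least 2-fold in a pair of tissues were shown by 9 members (11.4%), against 15.5% of all genes and 8.81% of bright genes.

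Among the names that are not structural subunits, Ndufaf1 read -2.31 and -2.34 in interzone, -4.96 and -1.53 in growth plate, and -2.14 and -0.79 in interdigital tissue; the growth plate control was again the low array, and the mutant was 10.8-fold higher in growth plate and 2.54-fold higher in interdigital tissue. Atp5s read -1.02 and -3.18 in interzone, -0.15 and 0.11 in growth plate, and -1.34 and -0.12 in interdigital tissue, and was 4.45-fold lower in mutant interzone and 2.33-fold higher in mutant interdigital tissue. Cox7a2l read 1.24 and 1.98 in interzone, 1.39 and 1.99 in growth plate, and 1.39 and 2.07 in interdigital tissue, higher in every mutant by less than 2-fold.

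Other gene lists were set beside the members. Their counts past 2-fold are to be read against the shares of all genes: 17.8% higher and 22.8% lower in interzone, 22.1% and 32.6% in growth plate, and 10.1% and 15.9% in interdigital tissue. In growth plate they also move with the scaling, where the median of all genes was -0.45, but -0.07 with the 75th percentile over probes detected on all arrays and -1.56 in the authors' deposited ratios. Of 38 assembly factors, 37 were on the array; 3 were higher and 12 lower in mutant interzone (of 35 measured, median -0.57), 14 and 8 in growth plate (of 33, median 0.49) and 6 and 4 in interdigital tissue (of 36, median 0.23). Surf1, an assembly factor of complex IV, read 3.38 and 1.17 in interzone, 3.21 and 2.38 in growth plate, and 1.76 and 2.23 in interdigital tissue, an interzone difference of -2.21 (log2). Of 78 mitochondrial ribosomal protein genes, 14 were higher and 16 lower in interzone (median -0.11), 26 and 27 in growth plate (-0.32) and 11 and 4 in interdigital tissue (0.27). The 16 genes of pyruvate dehydrogenase and the citric acid cycle, which feed electrons into the chain, gave 2 and 1, 2 and 3, and 1 and 0, with medians of -0.40, 0.00 and -0.03. Of 18 glycolysis genes none was higher and 7 were lower in mutant growth plate (median -0.90), while in interzone 1 was higher and 1 lower (-0.34) and in interdigital tissue 3 and 2 (0.48). Ldha, which makes lactate from pyruvate, read 3.28 and 2.67 in interzone, 4.81 and 3.21 in growth plate, and 2.85 and 3.24 in interdigital tissue. Among 17 regulators of mitochondrial genes, 2 of 16 measured were higher and 8 lower in growth plate (median -0.96), 2 and 3 in interzone and 2 and 1 in interdigital tissue. Nrf1, which encodes the factor of the motif above, read 1.23 and 0.47 in interzone, 2.96 and 1.06 in growth plate, and 0.93 and 1.65 in interdigital tissue, highest on the growth plate control array. Esrra, an estrogen-related receptor, read -0.24 and -1.88 in interzone, -3.58 and 0.17 in growth plate, and -0.32 and -1.26 in interdigital tissue, lowest on that array. Tfam, which maintains and transcribes mitochondrial DNA, read 3.96 and 3.93 in interzone, 4.46 and 3.75 in growth plate, and 4.06 and 3.99 in interdigital tissue, with no tissue past 2-fold. Another 11 genes of the respiratory chain and its assembly stand on the array under clone names and fell outside the name rule, among them Uqcr10 with levels of 2.50 and 2.56 in interzone, 3.21 and 2.51 in growth plate, and 2.73 and 3.06 in interdigital tissue. Of these 11, 1 was higher and 4 lower in mutant interzone (of 9 measured, median -0.98). The counts were 1 and 1 in growth plate (of 8, median -0.20) and 0 and 1 in interdigital tissue (of 10, median -0.05).

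Between tissues, the control growth plate array stood apart and the other controls resembled each other. Of 82 members measured in control interzone and control interdigital tissue, 4 were 2-fold higher and 3 lower in interzone (8.54%), against 29.5% of all genes (14.6% higher, 14.9% lower) and 17.5% of bright genes (9.77% higher, 7.73% lower); of the 68 bright members, 2 were higher and 2 lower (5.88%). The higher count was 2 with the 75th percentile over probes detected on all arrays, with normexp correction and when centred on the median of all genes, and 9 in the authors' deposited ratios. Control interzone against control growth plate gave 16 higher and 19 lower of 80 (43.8% against 48.8% of all genes and 44.6% of bright genes, of which 17.7% were higher and 26.9% lower), with 38.2% of the bright members past 2-fold. Control growth plate against control interdigital tissue gave 23 higher and 15 lower of 80 (47.5% against 49.7% of all genes and 47.6% of bright genes, of which 31.2% were higher and 16.5% lower), with 39.7% of the bright members past 2-fold. In the latter, complex V had 6 genes higher and 0 lower in growth plate, complex IV 7 and 2, complex III 2 and 2, complex II 1 and 0, and complex I 6 and 10. These directions follow the scaling, since the counts became 11 higher and 22 lower with the 75th percentile over probes detected on all arrays, 9 and 22 after quantile normalization, and 57 and 5 in the authors' deposited ratios. In the same order, interzone against growth plate became 23 and 10, 19 and 10, and 10 and 53. The comparisons of tissues share arrays with each other and with those of genotype.

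In the mutants, interzone against growth plate gave 9 higher and 17 lower of 81 (32.1% against 39.5% of all genes). Interzone against interdigital tissue gave 9 and 18 of 81 (33.3% against 36.2%), and growth plate against interdigital tissue 6 and 8 of 82 (17.1% against 29.4%). In the same order, 21.4%, 18.2% and 13.2% of all genes were higher and 18.2%, 18.0% and 16.2% lower. Past 2-fold were 27.2%, 23.3% and 15.4% of bright genes, and 27.9%, 27.9% and 13.2% of the 68 bright members. The growth plate and interdigital mutants shared slide 2. In both comparisons that hold the interzone mutant, complex IV had 4 genes lower and 1 higher in interzone, and Cox6a1, Atp5e and Sdhb were lower there, as in the comparison of genotypes.

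For 34 of the 83 members (41.0%) the growth plate control array held the highest of the 6 levels, and for 23 (27.7%) the lowest. Of all genes 32.4% were highest and 22.0% lowest on that array, and of the bright genes 47.1% and 20.6%. Complexes IV and V were highest there for 9 of 16 and 9 of 15 genes, and complex I for 11 and lowest for 14 of its 36. The array had the lowest median signal and the fewest spots above background of the 6, and their part in these extremes was not tested.

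**Figure D4:**
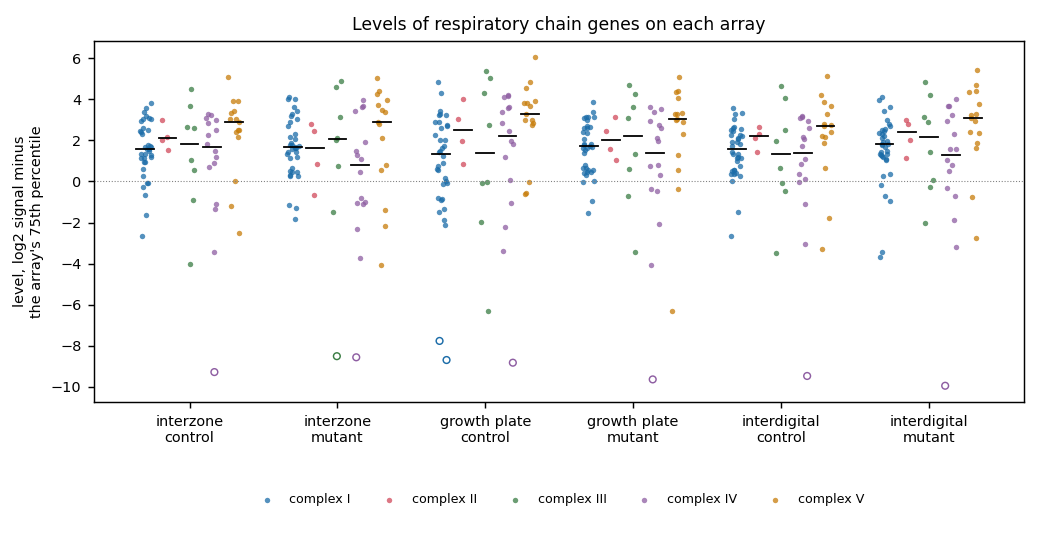
Levels of the members on each array by complex, as log2 signal minus the 75th percentile of the array (dotted line at 0); black bars are medians of a complex, and open circles are genes not well above background. The growth plate control array holds the widest range within complex I, and the medians of complexes I and III there were 1.32 and 1.38. In complex III the lowest level, -8.51, lies on the interzone mutant array and was not well above background.

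The differences were also compared between probes of the same gene. Over 20, 21 and 23 members with 2 measured probes, the gap between the mutant minus control differences of the brightest and the next probe had a median of 0.25 in interzone, 0.54 in growth plate and 0.22 in interdigital tissue. Over all genes with 2 measured probes it was 1.19, 1.52 and 0.70. The gap was not computed over bright genes alone, and the part of brightness in it was not tested. A few members disagreed widely. Ndufab1, the acyl carrier subunit of complex I, gave -1.14 at its brightest probe and 5.20 at the next in growth plate, and 0.20 and 2.89 in interzone. With the mean over its probes its growth plate difference turned to 0.66. Ndufb8 gave -0.91 and 2.90 in interdigital tissue, Ndufa3 0.94 and -1.93 in interzone, and Atp5s 0.26 and -2.18 in growth plate. In interzone, Sdha gave -0.20 and -1.78, and Uqcrc1 0.47 and -1.38. Ndufs6 gave 2.53, 1.67 and 7.13 at 3 probes in growth plate, all in the same direction, and Atp5g2 gave -1.20 and -1.44. Ndufab1 was the only member with opposite differences of at least 2-fold at its 2 brightest probes.

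**Figure D5:**
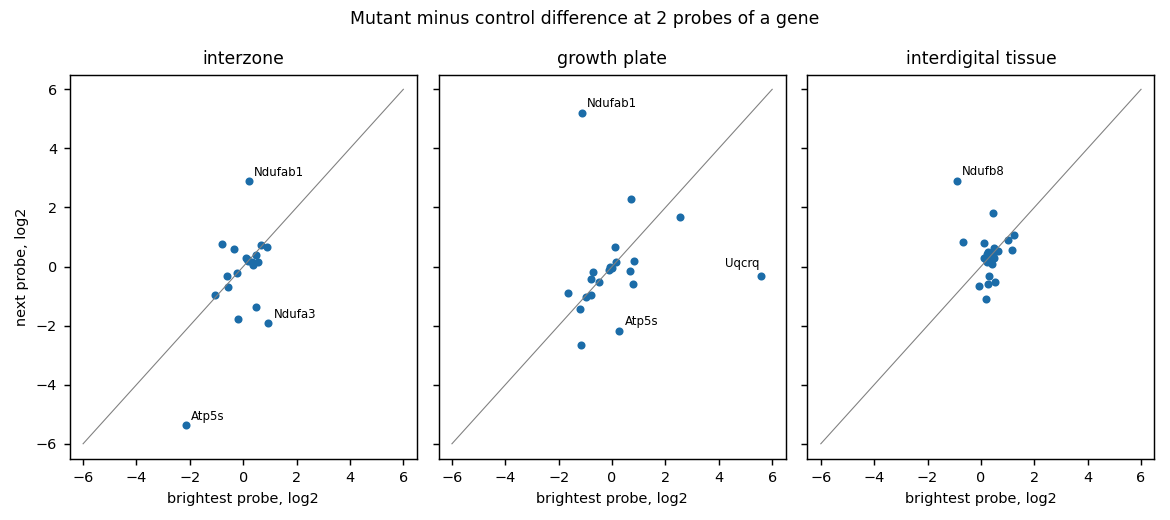
Mutant minus control log2 difference at the brightest probe (x axis) and the next brightest probe (y axis) of members with both probes well above background on both arrays; the line marks equal values and genes more than 2 log2 units from it are named. Most points lie near the line, and the gaps of Uqcrq and Ndufab1 in growth plate, 5.90 and 6.34, are the largest among the members.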

How the data were processed

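Gene expression was measured on 6 one-colour Agilent arrays (design 014868), 1 per tissue and genotype, read with Agilent Feature Extraction 9.5.1.1, per the file headers. The scanner files deposited by the authors give the intensity of each spot, background-subtracted and not scaled between arrays, per the file headers. The table deposited by the authors holds a ratio: each processed signal over its array's median, found by setting both against each other. Titles set the groups, since 5 of the descriptions name irradiated human blood.

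After leaving out control spots and the 75 to 123 outlier spots per array, 41174 probes were read as the mean of their spots. Levels are log2 of this signal less the 75th percentile on the same array. Probes were named through RefSeq accessions (23082 probes), symbols (6582) or older symbols (3073) of GRCm38.p6, and 8437 stayed unnamed. A member is named by the array's own gene name, and a gene is read at its brightest probe by mean over the arrays. Differences of at least 2-fold were counted where both arrays were well above background. Where 1 was not, a bound is given as at least N-fold under this scaling. Levels of different probes were not compared. No spot was saturated, and with 1 array per group the number of arrays limits the precision.

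Members to be described in full were the core subunits, the isoform pairs, the 5 most extreme differences per direction, every bound and disagreeing probes. The members and lists were chosen with earlier results of these data known. The counting was tested on simulated data. Alternatives were the 75th percentile over probes detected on all arrays, normexp background correction (offset 50) and quantile normalization in limma 3.58.1 (R 4.3.3), the deposited ratios, the mean over probes, a 4-fold limit, no filter on dim probes and structural subunits only; centring on all genes and Ndufa4 in complex IV were added after seeing the data. Analyses ran in Python 3.11.15 with pandas 2.3.3. The NRF1 letters were shortened to their centre after a longer form had been searched. Mitochondrially encoded subunits are not analysed here, and the values of 1 member are not reported here.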

Additional observations from a re-analysis of the deposited data

Results flagged for a closer look

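Of the members, 10 were at least 2-fold higher in the mutant in 1 tissue and at least 2-fold lower in another; of these, Uqcrfs1 was not well above background on the interzone mutant array. Among genes measured on all arrays, such opposite differences were shown by 9 of 79 members (11.4%), 15.5% of all genes and 8.81% of bright genes. With 1 array per group, none of these differences between tissues was tested. Values are mutant minus control log2 differences. Ndufv1 had -2.87 in interzone, 1.94 in growth plate and -4.23 in interdigital tissue. Lower in interzone and higher in growth plate were Cox6b2 (-2.90 and 1.83), Ndufa9 (-1.43 and 2.34), Ndufc2 (-1.32 and 2.97) and Ndufs8 (-1.22 and 1.91). Higher in interzone and lower in growth plate were Ndufb5 (3.09 and -1.95) and Ndufb8 (1.62 and -1.16). With the mean over its probes the interzone value of Ndufb8 turned to -1.62. Lower in interzone and higher in interdigital tissue were Atp5s (-2.15 and 1.22) and Atp5c1 (-1.01 and 1.01). Uqcrfs1 had -3.43 in growth plate and 1.43 in interdigital tissue.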

How the results depend on the processing

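With 1 array per group, all counts and medians describe these arrays alone, and leaving out a replicate was not possible. No paired analysis was possible because each group holds 1 array and all groups carry the same replicate number. Set against each alternative, 339 counts and medians stayed within 1.5 times the count or within the order-statistic interval of the members' median, and 57 did not and follow here, as numbers of members higher or lower or as medians (log2).

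With the 75th percentile over probes detected on all arrays, growth plate mutant minus control gave 24 higher and a median of 0.29. Control interzone minus growth plate then gave 10 lower and a median of 0.0299, control interzone minus interdigital 2 higher, and control growth plate minus interdigital 11 higher and a median of -0.10. Quantile normalization gave 24 higher and a median of 0.30 in growth plate, 10 lower and 0.065 for control interzone minus growth plate, and 9 higher and -0.13 for control growth plate minus interdigital. Relative to all genes it gave 1.46 for complex II in growth plate and 0.42 for complex V in interdigital tissue.

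In the deposited ratios the mutants gave 9 higher, 44 lower and a median of -1.20 in growth plate, and 13 higher, 1 lower and 0.49 in interdigital tissue. The control tissues gave 10 higher, 53 lower and -1.53 for interzone minus growth plate, 9 higher and 0.37 for interzone minus interdigital, and 57 higher, 5 lower and 1.80 for growth plate minus interdigital. The mutant tissues gave 14 higher and 0.14 for interzone minus interdigital and 0.10 for growth plate minus interdigital. These ratios are scaled to each array's median, which was 103 units on the growth plate control array. Centring on all genes gave 26 higher and 0.36 in growth plate, 13 higher, 1 lower and 0.49 in interdigital tissue, and 2 higher for control interzone minus interdigital. Normexp correction gave -0.37 for complex I relative to all genes in interzone and 2 higher for control interzone minus interdigital.

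At a 4-fold limit, higher and lower members were 2 and 6 in interzone, 9 and 7 in growth plate and 0 and 1 in interdigital tissue. For control tissues 4 were lower in interzone minus growth plate, 0 higher and 1 lower in interzone minus interdigital, and 4 and 8 in growth plate minus interdigital. For mutant tissues the counts were 2 and 4, 1 and 5, and 3 and 1.

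Among single genes, 4 values changed sign: with the mean over probes Ndufb8 in interzone (-1.62), Cox5a (3.01) and Ndufab1 (0.66) in growth plate, and with normexp correction Atp5g3 in interzone (0.79). Of the members past 2-fold, 24 of 28 in growth plate, 25 of 25 in interzone and 9 of 10 in interdigital tissue stayed past 2-fold with the percentile over detected probes, and 23, 20 and 9 in the deposited ratios; under both settings all of them kept their direction. The cause of these changes was not tested. Dim probes limit Ndufb6, Ndufb11, Uqcrfs1 and Cox8c.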
